A study of Mus musculus with 6 samples.

Results

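The transcripts of 9 genes of the C/EBP family and the stress-induced bZIP pathway were examined in mouse hippocampal cultures given forskolin. They were chosen by symbol from the deposited table of gene counts: Cebpa, Cebpb, Cebpd, Cebpg, Atf3, Atf4, Atf5, Ddit3 and Trib3. Of these, 8 were found among the 37411 gene rows and all 8 passed the filter on low counts, which left 16233 genes. Cebpd was not analysed here. The selection rule uses names only, and the set was proposed with earlier results of these data known.

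The cultures were primary hippocampal neurons of the outbred strain CD-1 IGS, taken from P0 pups and kept for 16 days in vitro (DIV 16). The cultures behind 3 libraries (4, 5 and 6) received 50 µM forskolin and those behind the other 3 (1, 2 and 3) an equal volume of its solvent, DMSO, each for 30 min. Forskolin activates adenylyl cyclase directly and so raises cyclic AMP, and the comparison asks which transcripts differ shortly after that. The labels do not say whether the libraries of a group came from separate cultures, so the p-values measure only the spread between these libraries, which may be technical. They name no genetic change and no batch.

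The basic leucine zipper (bZIP) proteins are transcription factors that bind DNA as dimers through a basic region beside a zipper of leucines. The C/EBP members are known for their roles in fat, liver and myeloid cells and, in neurons, in cAMP-dependent memory formation. ATF4 is translated when the initiation factor eIF2alpha is phosphorylated (the integrated stress response), and ATF3, ATF5, CHOP (the product of Ddit3) and the pseudokinase TRIB3 act downstream of it. ATF3 is also the product of an immediate early gene that answers CREB and AP-1.

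Promoters of Atf3 and Cebpb are shown because were the members with the highest fold changes. Each line gives the 250 bases before the RefSeq gene start (GRCm38.p6) from 5′ to 3′ on the gene's strand, and capitals mark the letters that matched a motif searched on both strands.
Atf3, minus strand, chr1:191183334-191183583: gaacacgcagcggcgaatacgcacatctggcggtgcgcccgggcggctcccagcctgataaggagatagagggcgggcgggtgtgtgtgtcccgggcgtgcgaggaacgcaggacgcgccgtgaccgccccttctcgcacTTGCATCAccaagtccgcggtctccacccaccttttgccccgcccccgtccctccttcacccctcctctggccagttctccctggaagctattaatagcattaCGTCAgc
Cebpb, plus strand, chr2:167688665-167688914: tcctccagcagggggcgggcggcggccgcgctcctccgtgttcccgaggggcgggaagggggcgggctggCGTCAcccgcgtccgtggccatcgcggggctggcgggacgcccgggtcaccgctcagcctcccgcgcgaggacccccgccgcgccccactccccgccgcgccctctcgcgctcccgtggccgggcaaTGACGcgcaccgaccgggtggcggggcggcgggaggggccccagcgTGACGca
The motifs were the cAMP response element TGACGTCA, its half-site TGACG (which the whole element contains), the C/EBP-ATF composite TGATGNAA and the AP-1 site TGANTCA. In Atf3 the composite motif matched from 110 to 103 bases before the start and a half-site from 7 to 3 bases before it. In Cebpb 3 half-sites matched, the first bases of which lie 180, 53 and 7 bases before the start. Among 32851 windows of this length in RefSeq, 17.8% held a half-site, 3.45% the composite motif, 6.75% the AP-1 site and 1.55% the whole element. These windows were not matched for GC content, which is 65.2% for the Atf3 window and 81.6% for that of Cebpb, against a median of 52.4%. No window of the 8 members held the whole element. The Atf3 window lies inside the span of that gene in GENCODE M21 (chr1:191170296-191218039), and the bases before the upstream end of that span were not searched. Atf4 had 1 half-site, Trib3 had 2 and Ddit3 had 1 AP-1 site, while none of the 4 motifs matched in the windows of Cebpa, Cebpg or Atf5. These are matches of letters and no binding was measured.

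Library totals ran from 28342764 to 47548379 counts. Fos, whose product is an AP-1 subunit, stood at 186, 109 and 101 CPM (counts over the TMM-scaled library size) in libraries 1, 2 and 3 (DMSO), and at 831, 902 and 448 CPM in libraries 4, 5 and 6 (forskolin) (edgeR adjusted p = 0.0375). The calls of this test rested on single libraries: it called 245 genes with all 6, 5698 without library 6, and 0 without any 1 of libraries 1 to 5 (1945 to 3216 at an unadjusted p under 0.05). All 14 neuron markers were detected in every library, at a summed level of 4363 to 5444 CPM with DMSO and 3231 to 4944 CPM with forskolin. The 12 astrocyte markers, also detected in every library, summed to 8832 to 9373 and 8652 to 9578 CPM. By gene they did not stay level: 6 had positive and 6 negative log2 fold changes, and the extremes were Aqp4 and Aldoc. Aqp4 was 675 and 862 CPM in libraries 4 and 5, against 212 to 313 CPM with DMSO and 243 CPM in library 6. Aldoc was 957 and 944 CPM in libraries 4 and 5, against 1677 to 1856 CPM with DMSO and 1659 CPM in library 6. The 12 microglia markers were all detected in all 6 libraries and summed to 35.3, 24.9 and 23.0 CPM in libraries 1 to 3, to 227 and 377 CPM in libraries 4 and 5, and to 25.1 CPM in library 6 (exact two-sided permutation test, p = 0.200, adjusted over 6 marker lists 0.600; 3 against 3 cannot give less than 0.1). Oligodendrocyte lineage markers summed to 823 to 914 CPM with DMSO, to 1101 and 1599 CPM in libraries 4 and 5, and to 647 CPM in library 6. That list was split by gene: of 11 tested, 6 had positive and 5 negative log2 fold changes, from -0.84 to 4.25. In 3 of them every forskolin library was below every DMSO library (16.2% of all genes). Sums were 12.2 to 36.7 CPM for endothelial markers and 87.2 to 284 CPM for mural and fibroblast markers, with overlapping groups in both. Libraries 4 and 5 therefore stand apart from the other 4 libraries, with the highest microglia and oligodendrocyte lineage sums and the lowest neuron sums (3231 and 3532 CPM), and member values are given below with and without these libraries. In bulk RNA, fewer cells of a type and less RNA per cell cannot be told apart.

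The stress members and the C/EBP members did not move as a block. Atf3 was higher in every forskolin library than in every DMSO library, Atf5 and Ddit3 were lower in every one, and the other 5 members overlapped between the groups. With edgeR's quasi-likelihood test on the 6 libraries, none of the 8 members passed an adjusted p of 0.05, against 1.51% of all tested genes. At an unadjusted p under 0.05 there were 2 members, Atf3 and Atf5, against 22.3% of all tested genes. DESeq2 called 2 members (Atf3 higher, Atf5 lower, 10.9% of all genes), limma-voom 0 (1.34%) and limma with sample quality weights 5 (41.9%). With limma-voom 2 members had an unadjusted p under 0.05, against 3314 of all 16233 genes. Without library 6 edgeR called 3 members (Atf3 and Cebpb higher, Atf4 lower), against 33.6% of all genes. The median log2 fold change of the 8 members was -0.21, and that of all tested genes was 0.02. Groups without overlap were found in 1 member upwards and 2 downwards, against 10.3% and 16.2% of all tested genes.

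**Figure D1:**
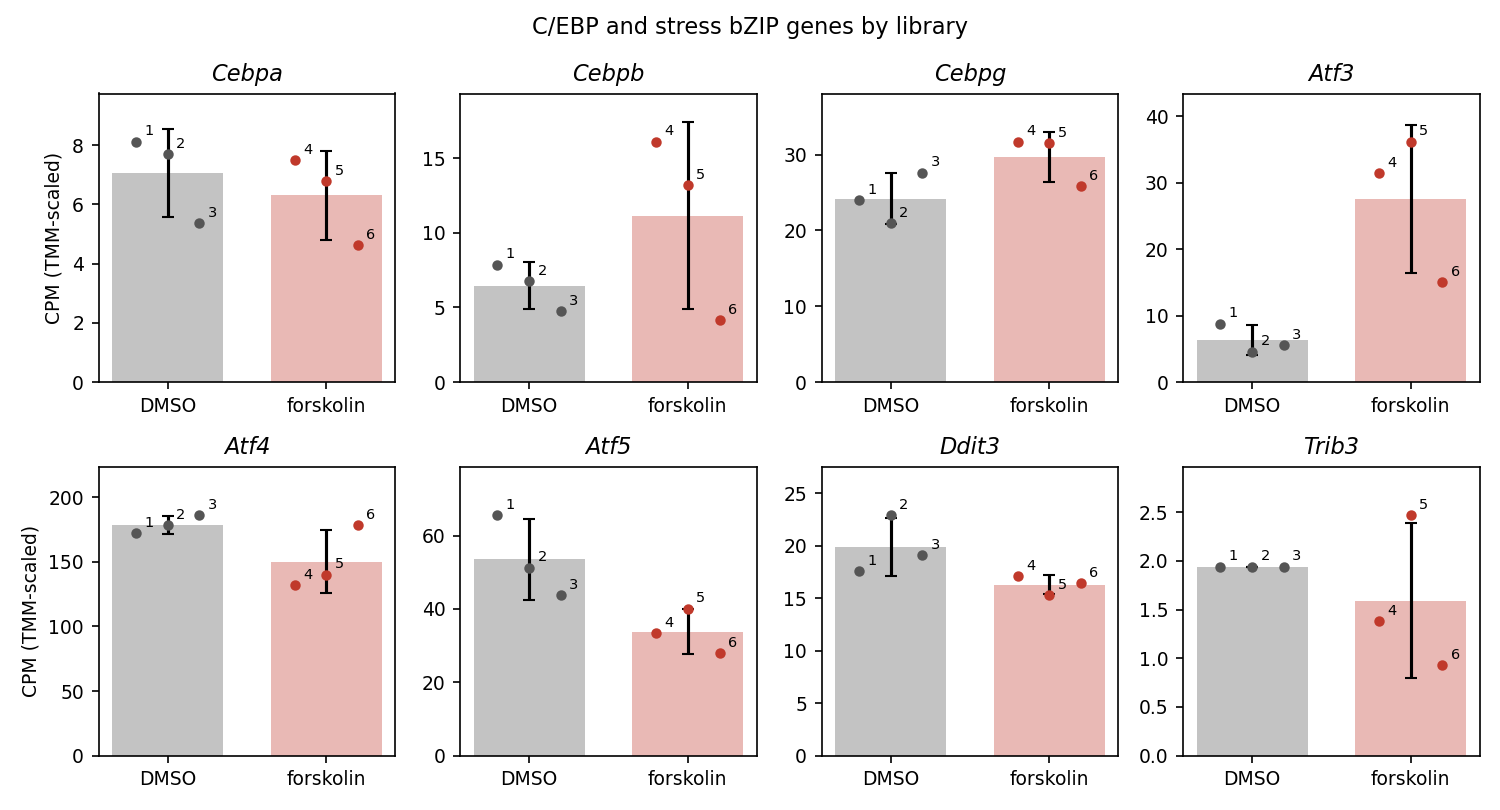
CPM of the 8 members in each library; numbered points are libraries, bars are group means and error bars are SD (n = 3). Library 6 is the lowest forskolin library for Cebpb and Atf3, at 4.15 and 15.0 CPM.

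Atf3, which encodes a stress- and activity-induced bZIP factor that can repress transcription, had the highest fold change of the members. Its counts were 282, 140 and 200 in libraries 1, 2 and 3 (DMSO) and 1485, 1231 and 503 in libraries 4, 5 and 6 (forskolin). As CPM these are 8.81, 4.59 and 5.61 with DMSO and 31.5, 36.2 and 15.0 with forskolin. The lowest forskolin library lies above the highest DMSO library, and library 6 lies below libraries 4 and 5. Group means were 6.34 ± 2.20 and 27.6 ± 11.1 CPM (SD, n = 3), a fitted fold of 4.35 (log2 fold change 2.12 ± 0.39 (SE), edgeR adjusted p = 0.0598). The call therefore depends on the test: Atf3 passed with DESeq2 (adjusted p = 3.35e-06), without a low-count filter in edgeR (0.0330), with limma sample quality weights (0.00276) and in edgeR without library 6 (log2 fold change 2.40, adjusted p = 0.00349).

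In library 6 the microglia sum was 25.1 CPM, within the DMSO range, and the oligodendrocyte lineage sum was 647 CPM, below it. Atf3 in this library was 1.25 above the DMSO mean on the log2 scale, against 2.32 and 2.51 in libraries 4 and 5. With libraries 4 and 5 left out, the log2 fold change was 1.28 ± 0.36 (SE; edgeR adjusted p = 0.199), with the single forskolin library assumed to vary like the DMSO libraries. Removing each library's trend on GC content left the log2 fold change at 2.22 (edgeR adjusted p = 0.187). In the authors' deposited table of 132 genes, all of them higher with forskolin, Atf3 is the only one of the 9 members. The smallest log2 fold change in the authors' deposited table is 1.5, which no other member reached on the 6 libraries with edgeR before the GC correction (the next was Cebpb, at 0.79). The authors' deposited table gives Atf3 a mean normalised count of 536, a log2 fold change of 2.06 with a standard error of 0.25 and an adjusted p of 1.15e-13.

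**Figure D2:**
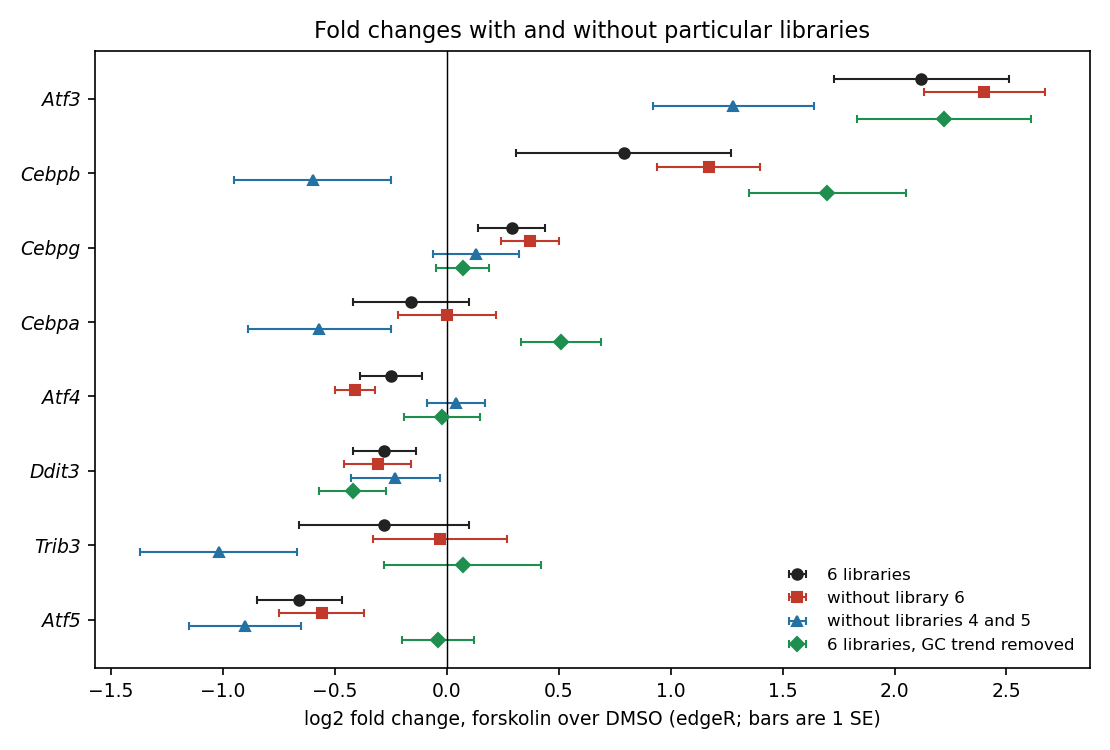
Log2 fold change of each member (edgeR; bars are 1 SE) with 6 libraries, without library 6, without libraries 4 and 5, and with the GC trend removed. Atf3 stays above 0 in all 4 fits, from 1.28 to 2.40, whereas Cebpb runs from -0.60 to 1.70.

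Among the C/EBP genes, Cebpb encodes a factor of the inflammatory response and of fat cell formation. Its counts were 252, 206 and 170 with DMSO and 760, 449 and 139 with forskolin, in library order. That is 7.87, 6.76 and 4.77 CPM with DMSO and 16.1, 13.2 and 4.15 CPM with forskolin. Libraries 4 and 5 lie above all DMSO libraries and library 6 lies below all of them. The log2 fold change over the 6 libraries was 0.79 ± 0.48 (SE; edgeR adjusted p = 0.362). Its sign depended on which forskolin libraries were used, at 1.17 without library 6 (edgeR adjusted p = 0.0135) and -0.60 without libraries 4 and 5 (0.459). With the GC trend removed it was 1.70 on the 6 libraries (edgeR adjusted p = 0.225), and without library 6 the corrected value passed (0.00248). The libraries with more Cebpb are those with the high microglia sums of 227 and 377 CPM, the high oligodendrocyte lineage sums of 1101 and 1599 CPM and the low neuron sums of 3231 and 3532 CPM. The part of these cells in the Cebpb values was not tested.

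**Figure D3:**
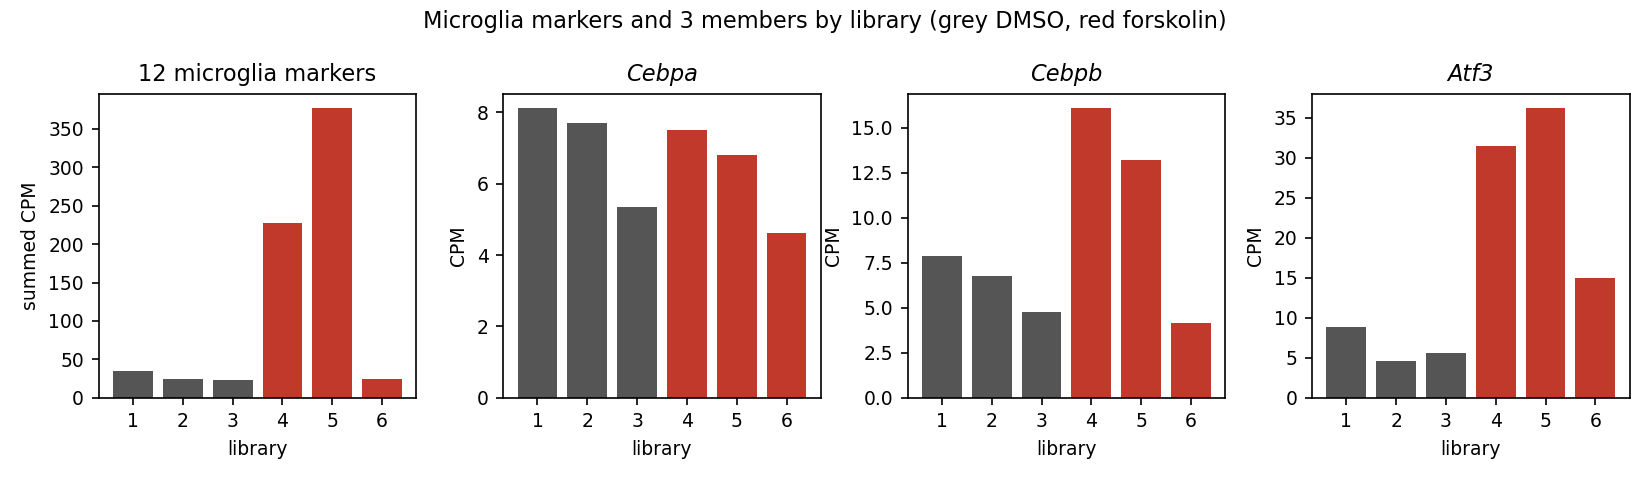
Summed CPM of 12 microglia markers and CPM of Cebpa, Cebpb and Atf3 in each library (grey DMSO, red forskolin). Cebpb is high in libraries 4 and 5 only, Atf3 is above the DMSO libraries in all 3 forskolin libraries, and Cebpa, at 4.63 to 8.12 CPM, does not follow the microglia sum.

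Cebpa encodes the C/EBP factor best known for myeloid and fat cell differentiation. Its levels were 8.12, 7.71 and 5.36 CPM in libraries 1, 2 and 3, and 7.50, 6.79 and 4.63 CPM in libraries 4, 5 and 6. The groups overlap, and the lowest values are those of library 6 and DMSO library 3. In contrast to Cebpb, libraries 4 and 5 were within the DMSO range for Cebpa. The log2 fold change was -0.16 ± 0.26 (SE; edgeR adjusted p = 0.737), and its sign changed to 0.51 when the GC trend was removed (0.377). Without libraries 4 and 5 it was -0.57 (edgeR adjusted p = 0.448). The longest transcript of Cebpa has a GC content of 62.6% and that of Cebpb 67.2%, against a median of 49.5% over the tested genes, which places them above 98.6% and 99.7% of those genes. With the GC trend removed and library 6 left out, Cebpa (edgeR adjusted p = 0.0480) and Cebpb (0.00248) passed the threshold, Cebpa at 0.56 on the log2 scale.

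Cebpg encodes a short C/EBP protein without a strong activation domain that pairs with other bZIP factors, ATF4 among them. It was measured at 24.0, 21.0 and 27.6 CPM in libraries 1 to 3, and at 31.7, 31.5 and 25.8 CPM in libraries 4 to 6. Libraries 4 and 5 were above the DMSO range and library 6 inside it. The log2 fold change was 0.29 ± 0.15 (SE; edgeR adjusted p = 0.292). Cebpg has a transcript GC content of 43.3%, and its log2 fold change was 0.07 after the GC correction (edgeR adjusted p = 0.782) and 0.13 without libraries 4 and 5 (0.747).

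Atf4, which encodes the central factor of the integrated stress response and is controlled mainly at translation, was the most abundant member. It held 172, 178 and 186 CPM with DMSO and 132, 140 and 178 CPM with forskolin. Libraries 4 and 5 lay below all DMSO libraries and library 6 was level with DMSO library 2. The log2 fold change was -0.25 ± 0.14 (SE; edgeR adjusted p = 0.333). Without library 6 it was -0.41 (edgeR adjusted p = 0.0157), and without libraries 4 and 5 it was 0.04 (0.901). With the GC trend removed it was -0.02 on the 6 libraries (edgeR adjusted p = 0.964) and -0.22 without library 6 (0.128), so the call was lost. Neuron marker sums were lower in libraries 4 and 5 as well, at 3231 and 3532 CPM against 4944 CPM in library 6. By gene, 8 of the 14 neuron markers were below every DMSO library in all 3 forskolin libraries (16.2% of all genes), library 6 included. On the 6 libraries edgeR called 2 of these lower, against 217 of all 16233 genes. With the GC trend removed it called 0 of the 14, and 0 of all genes. The 2 were Grin1, a glutamate receptor subunit gene, and Rbfox3, which encodes the neuronal nuclear protein NeuN. Grin1 stood at 147 to 192 CPM with DMSO and 86.9 CPM in library 6, and Rbfox3 at 69.2 to 84.5 and 47.2 CPM. Another 3 of the 14 had positive log2 fold changes. Among these, Nefl was 286 CPM in library 6 (174 to 222 with DMSO) and Gad2 128 CPM (60.6 to 111). The part of the neuron markers in the Atf4 values was not tested. Transcript levels do not measure ATF4 protein.

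Atf5, a bZIP gene also controlled by eIF2alpha phosphorylation and tied to the mitochondrial stress response, was the member with the most negative fold change. Its levels were 65.6, 51.3 and 43.7 CPM in libraries 1, 2 and 3, and 33.4, 40.1 and 28.0 CPM in libraries 4, 5 and 6. All forskolin libraries were below all DMSO libraries, with library 6 the lowest. Group means were 53.5 ± 11.1 and 33.8 ± 6.03 CPM (SD, n = 3; log2 fold change -0.66 ± 0.19 (SE), edgeR adjusted p = 0.140). DESeq2 gave an adjusted p of 0.0407 and limma with sample quality weights 0.0340. The Atf5 transcript has a GC content of 61.7%, and when the GC trend of each library was removed the log2 fold change was -0.04 ± 0.16 (SE; edgeR adjusted p = 0.904). Library 6 alone against DMSO, with libraries 4 and 5 left out, gave -0.90 (0.203).

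Ddit3 encodes CHOP, a C/EBP relative that dimerises with C/EBP proteins and keeps them from their usual sites, and that promotes cell death in prolonged stress. It held 17.6, 22.9 and 19.1 CPM in libraries 1 to 3, and 17.1, 15.3 and 16.4 CPM in libraries 4 to 6. The groups do not overlap, but the gap between DMSO library 1 and forskolin library 4 is small beside the spread within the DMSO group, with a SD of 2.71 CPM. The log2 fold change was -0.28 ± 0.14 (SE; edgeR adjusted p = 0.289). It was negative in all 16 alternative fits, from -0.43 to -0.15, and passed 0.05 in none of them. Without libraries 4 and 5 it was -0.23 (edgeR adjusted p = 0.585).

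Trib3 encodes a pseudokinase that is induced by ATF4 and CHOP and restrains them in turn. It was the least abundant member, with 62, 59 and 69 counts in libraries 1 to 3, and 65, 84 and 31 counts in libraries 4 to 6. Scaled to CPM, the DMSO libraries were alike at 1.94, 1.94 and 1.94, and the forskolin libraries were 1.38, 2.47 and 0.926. Library 5 lay above the DMSO libraries, and libraries 4 and 6 lay below them. The log2 fold change was -0.28 ± 0.38 (SE; edgeR adjusted p = 0.679). It moved with the libraries used, to -0.71 without library 5 (edgeR adjusted p = 0.449), -1.02 without libraries 4 and 5 (0.266) and -0.03 without library 6 (0.941). Its relatives Trib1 and Trib2 had log2 fold changes of 0.20 (edgeR adjusted p = 0.507) and -0.23 (0.303).

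Levels can be set between genes as CPM per kb of the longest annotated transcript. With DMSO the order was Atf4 (88.5 ± 3.38, SD, n = 3), Atf5 (29.5 ± 6.13), Ddit3 (20.5 ± 2.80), Cebpg (5.14 ± 0.705), Cebpb (4.30 ± 1.04), Atf3 (3.19 ± 1.11), Cebpa (2.69 ± 0.568) and Trib3 (0.956) in CPM per kb. The DMSO ranges of Cebpg and Cebpb, of Cebpb and Atf3, and of Atf3 and Cebpa overlap, while those of Atf4, Atf5, Ddit3 and Cebpg do not overlap with their neighbours above. With forskolin Atf3 came next after Ddit3, at 13.9 ± 5.60 CPM per kb (SD, n = 3) and a range of 7.57 to 18.2 CPM per kb, which overlaps those of Ddit3 (15.8 to 17.7) and Atf5 (15.4 to 22.1) above it and of Cebpb (2.76 to 10.7) below it.

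Counted library by library, the members above every DMSO library were 3 of 8 (library 4), 4 (library 5) and 1 (library 6), against 37.5, 37.1 and 29.5% of all tested genes. Below every DMSO library there were 4, 3 and 5 members, against 38.1, 39.3 and 35.3% of all tested genes. Atf3 was the member above in all 3 libraries. Library 6 was below the DMSO range for Cebpa, Cebpb, Atf5, Ddit3 and Trib3.

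Genes on which ATF4 acts are a readout of the stress pathway. Of 33 listed ATF4 targets, many of them for amino acid synthesis, transport and tRNA charging and others such as Chac1 and Sesn2 for stress responses, 32 were tested. None was called in either direction by edgeR on the 6 libraries (1.51% of all genes), 3 had an unadjusted p under 0.05 (22.3% of all genes), and DESeq2 called 1 lower (10.9% of all genes in either direction). Limma with sample quality weights called 14 lower and 0 higher (41.9% of all genes in either direction). Their median log2 fold change was -0.27, against 0.02 over all tested genes, and 29 of 32 were negative, against 7825 of 16233. After the GC correction the median was -0.19, with 27 negative. Chac1, which encodes a glutathione-degrading enzyme, stood at 13.9, 19.0 and 17.8 CPM with DMSO and 8.09, 9.49 and 11.4 CPM with forskolin, without overlap (log2 fold change -0.81, edgeR adjusted p = 0.101). Slc7a5, a transporter of large neutral amino acids, had 151, 153 and 123 CPM with DMSO and 79.2, 89.1 and 126 CPM with forskolin, where library 6 lay in the DMSO range (log2 fold change -0.53, edgeR adjusted p = 0.188). The GC correction moved Chac1 to -0.47 (edgeR adjusted p = 0.448) and Slc7a5 to -0.25 (0.610).

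Without library 6, edgeR called 12 of the 32 targets lower and 0 higher, beside 17.1% of all genes lower and 16.5% higher. Without libraries 4 and 5 the median of the targets was -0.03, with 14 positive and 18 negative. The negative median of the ATF4 targets thus comes mainly from libraries 4 and 5. In library 6 the targets were mixed. Of the 32, 4 were below every DMSO library in all 3 forskolin libraries (16.2% of all genes), Chac1 among them. Asns, in contrast, was 161 CPM in library 6, against 116 to 143 CPM with DMSO. The lower neuron marker sums of libraries 4 and 5 go with the negative median, and their part was not tested.

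The other arms of the unfolded protein response were read from 23 ER chaperones and genes of the IRE1 and ATF6 arms. On the 6 libraries edgeR called 0 of them (1.51% of all genes), with 6 at an unadjusted p under 0.05 (22.3% of all genes). DESeq2 called 1 higher and 2 lower (10.9% of all genes in either direction), and limma with sample quality weights called 10 (41.9%). Their median log2 fold change was 0.14, with 14 positive and 9 negative, and 0.13 without libraries 4 and 5. With the GC trend removed the median was 0.04, and -0.02 when library 6 was also left out. Atf6b, a paralog of the stress sensor gene Atf6, had the smallest p, at 55.2, 58.2 and 47.5 CPM with DMSO and 37.2, 36.0 and 27.4 CPM with forskolin (log2 fold change -0.68, edgeR adjusted p = 0.0870). After the GC correction this became -0.16 (0.462). Syvn1, an ER ubiquitin ligase gene, followed with -0.45 (edgeR adjusted p = 0.104), and -0.17 after the GC correction (0.479).

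Of 14 tested genes for eIF2alpha kinases, phosphatase subunits and eIF2B, edgeR on the 6 libraries called 0 (1.51% of all genes), with 4 at an unadjusted p under 0.05 (22.3%) and 3 called by DESeq2 (10.9%). Ppp1r15a, which encodes GADD34, the inducible subunit that directs a phosphatase to eIF2alpha, had the smallest p. It held 27.0, 26.3 and 21.1 CPM with DMSO and 73.8, 67.6 and 38.1 CPM with forskolin, so that all forskolin libraries were above all DMSO libraries (log2 fold change 1.27 ± 0.26 (SE), edgeR adjusted p = 0.0705). Its value was 0.66 without libraries 4 and 5 (edgeR adjusted p = 0.197) and 1.49 without library 6 (0.00286). Eif2b4, for a subunit of the eIF2B exchange factor, had -0.40 on the same log2 scale (edgeR adjusted p = 0.109), and -0.10 after the GC correction (0.669).

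Among 30 tested bZIP genes outside the 9, edgeR called 3 higher, against 0.172% of all tested genes, and 0 lower. These were Maff (log2 fold change 3.71, edgeR adjusted p = 0.0314), Fosb (3.38, 0.0402) and Fos (2.46, 0.0375), which encode a small Maf factor and AP-1 subunits that can pair with ATF factors. Without any 1 of libraries 1 to 5 none of them passed, nor did they without libraries 4 and 5 (2.71, 2.97 and 1.80 in the same order) or with the GC trend removed (4.02, 3.62 and 2.56). Maff ran from 3.44 to 4.14 on the log2 scale without any 1 of libraries 1 to 5, in fits that called 0 of all genes. Without library 6 edgeR called 9 of the 30 higher and 3 lower, beside 16.5% and 17.1% of all genes. The median of the 30 was 0.12, and -0.03 without libraries 4 and 5. Beside them, the log2 fold change of Atf3, 2.12, was below all 3 and its adjusted p above theirs.

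Of 16 genes listed as myeloid and acute phase targets of C/EBP factors, 10 were tested and all 10 had positive log2 fold changes, with a median of 2.92. On the 6 libraries edgeR called 1 of them (1.51% of all genes), and DESeq2 and limma with sample quality weights called 9 each (10.9% and 41.9%). Ptgs2, the cyclooxygenase gene and the one that passed with edgeR, rose from 3.81, 3.51 and 4.49 CPM to 20.8, 24.1 and 12.4 CPM (log2 fold change 2.28 ± 0.28 (SE), edgeR adjusted p = 0.0297). Cxcl1, a chemokine gene, had 1.22, 0.820 and 0.842 CPM with DMSO and 5.01, 10.3 and 2.96 CPM with forskolin (log2 fold change 2.66, edgeR adjusted p = 0.0613). Most of the size of this list lies in libraries 4 and 5: without them the median of the 10 was 0.10, with 5 positive and 5 negative. The microglia markers had a median of 4.26 over 11 tested genes and one of -0.21 without libraries 4 and 5, and Csf1r is in both lists. Without these 2 libraries the log2 fold change of Ptgs2 was 1.69 (edgeR adjusted p = 0.0502). After the GC correction on the 6 libraries it was 1.83 (0.114). Without library 6 all 10 were called higher, beside 16.5% of all genes. A further 5 genes of the list, at 0 to 9 counts in the DMSO libraries, then passed the filter through libraries 4 and 5 and are left out of this count.

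**Figure D4:**
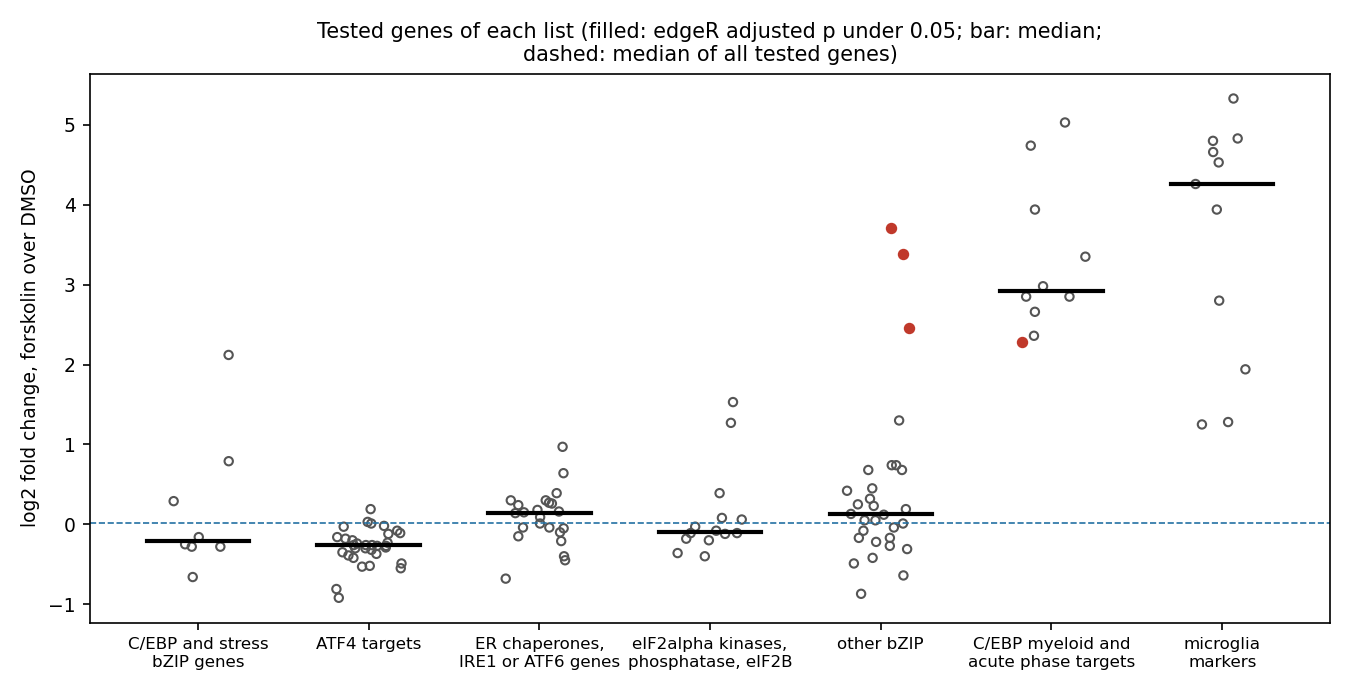
Log2 fold change of each tested gene by list, with list medians as bars, the median of all tested genes dashed and genes past an edgeR adjusted p of 0.05 filled. The ATF4 targets sit around -0.27, and the C/EBP myeloid targets and microglia markers around 2.92 and 4.26.

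The closest patterns over the 6 libraries were found by the root mean square difference of centred log2 CPM, among 13446 tested genes that averaged 50 counts or more. For Atf3 they were Cyr61, a matrix protein gene (0.169), and Nr4a1, an orphan nuclear receptor gene (0.191). Cyr61 had 84.0, 44.1 and 42.6 CPM with DMSO and 220, 277 and 119 CPM with forskolin, and Nr4a1 had 37.6, 19.3 and 16.6 CPM and then 137, 138 and 61.6 CPM. Like Atf3, both were lower in library 6 than in libraries 4 and 5 and highest among the DMSO libraries in library 1. For Cebpb the closest were 6820408C15Rik (0.044) and Sgms2 (0.073), for Cebpa Gm13889 (0.055) and Mocs1 (0.059), and for Cebpg Xpr1 (0.039) and Prkx (0.042). For Atf4 they were Zmynd19 (0.020) and Spats2 (0.024), for Ddit3 Lrrc27 (0.031) and Ndufc2 (0.036), for Trib3 Eif4ebp1 (0.145) and Rps26 (0.174), and for Atf5 Hist1h1e (0.103) and Ppp1r14b (0.112). A member with a flat profile has many close genes, so these distances do not rank the members, and histone genes such as Hist1h1e share near-identical sequence.

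In the annotation (GENCODE M21, GRCm38) Cebpa, at chr7:35119293-35121928, Cebpb, at chr2:167688915-167690418, and Atf4, at chr15:80255184-80257541, have a longest transcript of 1 exon. Atf3 lies at chr1:191170296-191218039 and Ddit3 at chr10:127290774-127296288. The span of Cebpb overlaps Tmem189 on the other strand, that of Atf5 overlaps Il4i1 and Nup62, and that of Ddit3 overlaps Mars. The spans of Cebpa, Cebpg, Atf3 and Ddit3 also overlap genes with Gm symbols, and a second gene record carries the symbol Ddit3. These are overlaps of whole spans, and shared exons were not examined. Whether the counting used strand is not given in the sources used here, so how far reads of such pairs were told apart is not known.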

How the data were processed

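Per the labels' protocols, RNA came from a Trizol and chloroform extraction and libraries from standard Illumina methods. The authors deposited raw counts per gene symbol, as whole numbers, for 6 libraries. The submitters' processing notes name Salmon, DESeq and the build GRCm38 without their roles or versions, so whether the counts are rounded estimates is not given in the sources used here. The authors' deposited table of 132 genes holds a signal (the mean of normalised counts), log2 fold changes and their standard errors, a score (the test statistic), and raw and adjusted p-values, per the file headers.

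The low-count filter was filterByExpr of edgeR (at least 10 counts, total of at least 15), and genes were tested with glmQLFit and glmQLFTest after TMM scaling, with Benjamini-Hochberg adjustment over 16233 genes and a threshold of 0.05 (R 4.3.3, edgeR 4.0.16, limma 3.58.1, DESeq2 1.42.0). The SE is the size of the log2 fold change over the root of F. Profiles used log2 CPM with a prior count of 2. GC content came from the longest GENCODE M21 transcript, matched by symbol for 97.1% of tested genes; each library's lowess trend on it (span 0.3) entered edgeR as an offset. The fits were tested on simulated data. Promoters are RefSeq's, matched by symbol for 8 members. Trib3, with the fewest counts of the members, has the largest relative counting error.

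The members and gene lists were chosen with earlier results of these data known. Named genes are all members; in each list up to 4 genes past the threshold with the largest change, filled up to 2 by smallest p; the 2 genes closest in profile to each member; and Fos and Nr4a1. Csf1r, Grin1, Rbfox3, Sesn2, Aqp4, Aldoc, Nefl, Gad2 and Asns were named after their values were seen. Alternatives were DESeq2, limma-voom, limma quality weights, RLE factors, library size alone, no filter, a mean CPM of at least 1, the GC correction, and leaving out libraries. The GC correction without library 6 was added after the data were seen.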

Additional observations from a re-analysis of the deposited data

How the results depend on the processing

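No paired analysis was possible because the labels number the libraries 1 to 6 across both groups, which share no number. Calls over all tested genes went from 245 to 1775 with DESeq2, 6795 with limma quality weights, 137 with RLE factors, 94 without libraries 4 and 5, 0 with the GC trend removed (1947 at an unadjusted p under 0.05) and 5429 with that correction and library 6 left out. In the same order of lists (members, ATF4 targets, ER genes, eIF2alpha genes, other bZIP genes, C/EBP targets), DESeq2 called 2, 1, 3, 3, 8 and 9, quality weights called 5, 14, 10, 5, 17 and 9 (and 1 of the Trib paralogs), and the GC correction without library 6 called 3, 10, 5, 3, 14 and 15 (and 1 Trib paralog). Without a filter there were 1 member, 1 eIF2alpha gene and 2 C/EBP targets, and with library size alone 2 C/EBP targets. With the GC correction other bZIP genes and C/EBP targets had 0 edgeR calls each. At an unadjusted p under 0.05 there were 9 of 30 and 9 of 10, against 1947 of 16233 genes. Leaving out 1 library gave 0 to 5698 calls over all genes, 0 to 3 members, 0 to 12 ATF4 targets, 0 to 8 ER genes, 0 to 3 eIF2alpha genes, 0 to 14 other bZIP genes, 0 to 1 Trib paralogs and 0 to 15 C/EBP targets, the highest value being that without library 6 in each. Without library 6, with or without the GC correction, the C/EBP targets and other bZIP genes tested include 5 and 2 that passed the filter through libraries 4 and 5, where they are high. Among the genes also tested with 6 libraries the counts without the correction were 10 of 10, and 9 higher and 3 lower of 30. The cause of these differences was not tested.

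Of 128 member fold changes under alternatives, 108 kept direction and side of the threshold, 13 newly passed it with the same sign and 7 changed sign, 1 of which (Cebpa with the GC correction and without library 6) also passed the threshold. The sign changes were Cebpa at 0.51 and Trib3 at 0.07 with the GC correction, Cebpa at 0.56 and Trib3 at 0.27 with it and without library 6, Cebpa at 0.00 without library 6 (range -0.34 to 0.00 over single libraries left out), and Cebpb at -0.60 and Atf4 at 0.04 without libraries 4 and 5. The summed endothelial markers differed by 1.67 CPM (forskolin minus DMSO) and by -0.719 CPM with library size alone. Astrocyte sums differed by -191 CPM and, with library size alone, by -880 CPM (exact two-sided permutation p = 0.800 and 0.1, the latter the smallest possible), neuron sums by -1054 and -1353 CPM (0.200 and 0.1), oligodendrocyte lineage sums by 250 and 165 CPM and mural and fibroblast sums by 14.8 and 1.97 CPM. With 31 to 84 counts per library, Trib3 has the largest relative counting error of the members.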
